A study of Homo sapiens with 12 samples.

Results

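The genes described here are 10 transcription factors and effectors of the integrated stress response: ATF4, ATF3, ATF5, CEBPB, CEBPG, DDIT3, DDIT4, TRIB3, SESN2 and NUPR1. They are given by name, with no threshold on their values, and were chosen with earlier results of these data known. All 10 were found among the 60648 genes of the count table. RNA was sequenced from a line of human colon carcinoma cells, HCT116. There were 4 groups with 3 libraries in each, which the submitters describe as biological replicates. The groups were wild-type (WT) cells at an initial harvest, WT cells at a final harvest, MTHFD2 knock-out (KO) cells at the initial harvest and KO cells at the final harvest. The initial harvest directly followed the making of the knock-out, and the final harvest came after 2 months of culture. All groups grew in DMEM with serum and antibiotics. The knock-out was made with CRISPR-Cas9 and is a single isolated clone, so loss of MTHFD2 and other properties of that clone cannot be told apart. The p-values measure the spread between libraries within the groups, WT and KO together, and not the spread between clones. The question was whether the 10 RNAs differed between these groups, and whether ATF4 RNA itself moved with the genes that the ATF4 protein controls.

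The integrated stress response begins when one of several kinases phosphorylates the translation factor eIF2, which slows protein synthesis in general. Upstream reading frames in the ATF4 mRNA make its translation rise under those conditions, so ATF4 protein can increase without a change in its RNA, and RNA counts do not measure that step. ATF4 is a leucine-zipper (bZIP) transcription factor that binds DNA with partners such as CEBPB and CEBPG and turns on genes for amino acid synthesis, amino acid uptake and tRNA charging. Among its known targets are further transcription factors (ATF3, ATF5, DDIT3) and effectors that limit growth or damp the response (DDIT4, TRIB3, SESN2). MTHFD2, a mitochondrial folate enzyme, is itself a known ATF4 target.

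Library totals lay between 38597809 and 40017561 counts, and 18289 genes passed the filter on low counts. Abundances are given as CPM, counts relative to the library total scaled with edgeR's TMM factors. Changes were called at a Benjamini-Hochberg adjusted p under 0.05 over those genes in edgeR's quasi-likelihood test. MTHFD2 was lower in the KO at both harvests, with log2 fold changes of -1.59 (SE 0.108, adjusted p 3e-08) and -1.38 (SE 0.107, adjusted p 1.09e-07). The epithelial genes KRT8, KRT18, KRT19, EPCAM, CDH1 and CDX2 were expressed, while differentiated-colon markers such as KRT20, CDX1, VIL1 and LGALS4 were at or near 0. The 12 epithelial markers summed to 2625 to 3233 CPM in the initial WT, 3062 to 3203 in the final WT, 2466 to 2706 in the initial KO and 2214 to 2589 in the final KO. Of the 7 fibroblast markers, DCN and LUM had no counts in any library, while COL1A1 had mean levels of 61.7 and 68.5 CPM in the initial and final WT and 40.6 and 49.3 CPM in the KO. The 7 summed to 56.8 to 69.9 CPM in the initial WT, 60.2 to 78.8 in the final WT, 37.5 to 48.2 in the initial KO and 43.4 to 59.3 in the final KO. The 6 leukocyte markers summed to 0.708 to 2.70 CPM over all libraries, with LYZ at 0.305 CPM in the initial WT and 1.72 CPM in the initial KO and CD3E at 0. The 4 endothelial markers summed to 1.95 to 3.46 CPM. The part of these markers in the results was not tested. Of the 10 genes, 9 passed the filter with ample counts, whereas NUPR1 passed only through the initial WT libraries and is also left out of the counts of genes below where stated.

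ATF4 with a CEBP partner is known to bind a composite element with the letters TGATGNAA, found in many of its targets, so the promoters were searched for it on both strands. The windows held 250 bases before and 50 bases after each start site in RefSeq (GRCh38.p14). They were available for 9 of the 10 genes (18 windows). The element occurred in 3.62% of all 35116 windows and at 4.46% of 27305 genes. It was present in 1 window each of ATF3 and CEBPG, and in 13 of the 27 ATF4 target genes outside the 10 that had a window. The matches, in capitals, are printed for ATF3 (chr1:212565205-212565234, plus strand) and CEBPG (chr19:33374060-33374089, plus strand). They are set beside those in ASNS (chr7:97872458-97872487, minus strand), CHAC1 (chr15:40953251-40953280, plus strand) and FGF21 (chr19:48755459-48755488, plus strand), 3 known ATF4 targets that allow the letters to be compared. Each is read 5′ to 3′ on the strand of its gene.
ATF3: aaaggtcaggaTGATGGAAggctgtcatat
CEBPG: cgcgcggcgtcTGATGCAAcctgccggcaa
ASNS: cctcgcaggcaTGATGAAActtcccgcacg
CHAC1: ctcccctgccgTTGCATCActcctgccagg
FGF21: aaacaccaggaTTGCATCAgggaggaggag
In CHAC1 and FGF21 the element lay on the opposite strand, so its reverse complement is in capitals. The first base of the match was 191 bases before the start in ATF3 and 42 bases before it in CEBPG. The printed stretches of ASNS and CHAC1 overlapped annotated exons of their genes. The palindromic CRE, TGACGTCA, occurred in 1.85% of all windows and in none of the windows of the 10 genes or of the 27 targets. A match describes letters in these windows and does not show binding.

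ATF4 was the most abundant of the 10 transcripts in every group and NUPR1 the least. Per kilobase of annotated exon, the initial WT had 173 ± 24.8 CPM of ATF4, 87.8 ± 16.3 of DDIT4 and 42.3 ± 9.33 of TRIB3 (SD, n = 3). CEBPG (22.2 ± 0.883), DDIT3 (19.7 ± 2.64), ATF3 (16.6 ± 3.02), CEBPB (11.6 ± 2.77) and ATF5 (9.78 ± 1.62) followed, and each of these overlapped its neighbour in that order. SESN2 had 1.56 ± 0.278 and NUPR1 0.0971 ± 0.0176 CPM per kilobase. In the initial KO, ATF4 had 140 ± 0.643 and DDIT4 31.9 ± 1.93 CPM per kilobase. TRIB3 (13.2 ± 0.328) then stood below CEBPG (16.3 ± 0.946) without overlap, and it overlapped ATF5 (12.9 ± 0.334).

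**Figure D1:**
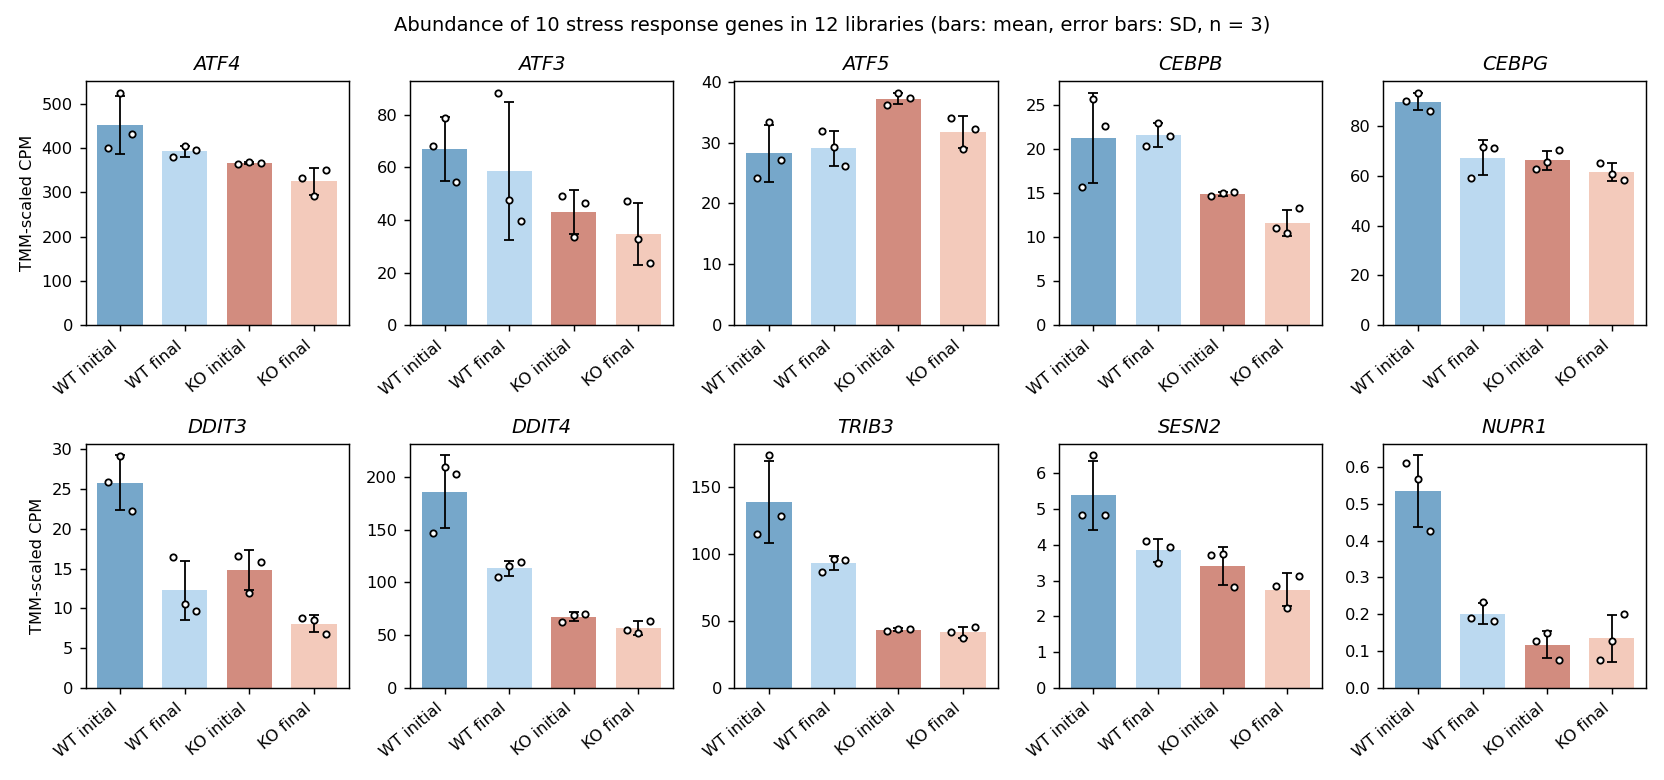
TMM-scaled CPM of the 10 genes (vertical axes, linear and starting at 0, with a separate scale for each gene) in the 4 groups. Points are libraries, bars are means and error bars are SD (n = 3). DDIT4 and TRIB3 stepped down from the initial WT to the final WT and again to the KO, ATF4 ranged from 292 to 526 CPM, and ATF5 had its highest mean in the initial KO.

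ATF4 (ENSG00000128272.17, hg38 chr22:39519695-39522683, plus strand) had 401, 526 and 431 CPM in the initial WT and 365, 368 and 367 CPM in the initial KO. It had 379, 404 and 396 CPM in the final WT and 333, 292 and 351 CPM in the final KO. At each harvest every KO library lay below every WT library, and the initial WT replicate 2 was the highest of all 12. The means were 453 ± 64.9 and 367 ± 1.68 CPM at the initial harvest, and 393 ± 12.7 and 325 ± 30.3 CPM at the final harvest (SD, n = 3). In edgeR's quasi-likelihood test ATF4 was lower in the initial KO by a log2 fold change of -0.30 (SE 0.1004, adjusted p 0.0436), or 81.1% of the WT level. The final difference was -0.27 (SE 0.1004, adjusted p 0.0729), 82.8% of the WT level, and was not called. Averaged over both harvests it was -0.29 (SE 0.0710, adjusted p 0.00549), lower in the KO in all 6 libraries against the WT of the same harvest. The average kept its call when any library was left out (-0.33 to -0.23). The initial call did not. It was lost in 9 of 12 fits that left out a library, with -0.18 (adjusted p 0.146) without the initial WT replicate 2, and in a fit of the initial groups alone (-0.30, adjusted p 0.0681).

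Most known ATF4 target genes outside the 10 were lower in the KO, and most had fold changes below that of ATF4 RNA. Of 35 such genes tested, 29 were lower and none higher at the initial harvest, and at the final one 25 were lower and none higher. FGF21, counted as lower at both harvests, passed the filter on low counts only through the initial WT libraries, where it was high. Of all tested genes, 11.3% were lower and 8.55% higher initially, and 10.2% and 8.38% at the final harvest. The medians of these 35 log2 fold changes were -0.57 and -0.39, while those of all genes were 2.49e-05 and -0.000827. Of the 35, 28 had a fold change below that of ATF4 at the initial harvest and 25 at the final harvest. CHAC1, which degrades glutathione, fell from 42.9 ± 10.2 to 6.37 ± 0.544 CPM at the initial harvest (log2 fold change -2.75, SE 0.153, adjusted p 3.25e-09) and fell by 2.10 on the log2 scale in the final KO. GPT2, a mitochondrial alanine transaminase, had log2 fold changes of -1.21 and -0.69, SLC1A4, a neutral amino acid transporter, -1.50 and -0.91, and PHGDH, the first enzyme of serine synthesis, -0.98 and -0.80. All 6 values passed the test. ASNS, the asparagine synthetase whose promoter is shown above, had 17.5 ± 3.82 CPM in the initial WT and 4.83 ± 0.574 in the initial KO (log2 fold change -1.85, adjusted p 5.03e-07). FGF21, a secreted stress hormone, had 28, 29 and 27 counts in the initial WT and 1, 0 and 2 in the initial KO, at least 9.13-fold lower when each KO library is set to 3 counts. FGF21 lay below the median of the 35 (-0.57) both as fitted and at that bound, so the bound could not move the median. These 35 genes are known targets chosen with earlier results of these data in view, so their direction is not independent evidence.

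Set library by library against the mean of the initial WT, the median of the 35 targets was lower by 0.21 to 0.26 (log2) in the final WT, by 0.54 to 0.63 in the initial KO and by 0.55 to 0.69 in the final KO. ATF4 itself had mean differences of -0.19 in the final WT, -0.29 in the initial KO and -0.47 in the final KO on the same scale. The target median thus lay near ATF4 in the final WT and below it in the initial KO, a difference described here without a test. In the final KO it lay below ATF4 in each library, but the ranges overlapped (ATF4 -0.62 to -0.36, target median -0.69 to -0.55). Over time in the WT, 21 of the 35 targets had fold changes below that of ATF4, and over time in the KO 6 did.

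**Figure D2:**
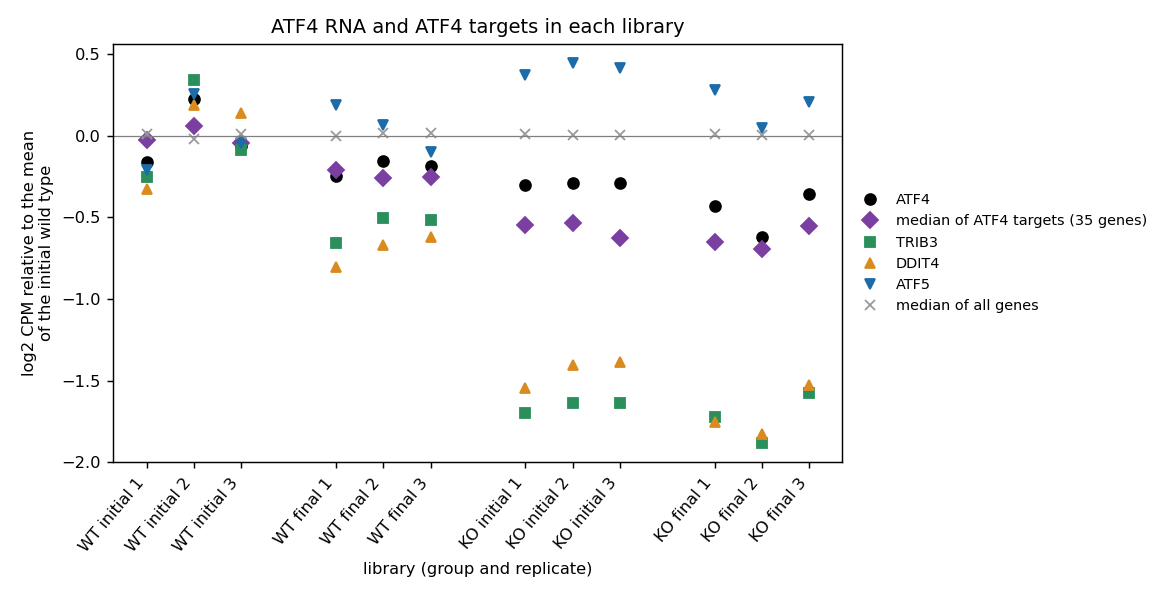
Log2 difference of each of the 12 libraries from the mean of the initial WT (vertical axis), by group and replicate (horizontal axis). Symbols and colours stand for ATF4, TRIB3, DDIT4, ATF5, the median of 35 ATF4 targets and the median of all genes. In every KO library TRIB3 and DDIT4 lie below ATF4, and ATF5 lies above it.

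The level of each gene relative to ATF4 in the same library gives a value that does not depend on scaling between libraries. TRIB3 CPM amounted to 28.7%, 33.0% and 29.9% of ATF4 CPM in the initial WT and to 11.5%, 11.97% and 11.97% in the initial KO. In the final WT these percentages were 22.9, 23.9 and 24.2, and in the final KO 12.45, 12.68 and 13.05. The 4 groups of TRIB3 ratios were narrow, and the KO ratios lay far below those of the WT at both harvests. DDIT4 had ratios of 36.5%, 39.8% and 47.0% in the initial WT, 17.2%, 18.8% and 19.2% in the initial KO, 27.7%, 28.6% and 30.2% in the final WT, and 16.4%, 17.7% and 18.2% in the final KO. At the initial harvest the ratios of 5 of the other 9 genes were lower in the KO without overlap (DDIT3, DDIT4, TRIB3, SESN2 and NUPR1), against 4.65% of all genes. Without NUPR1 this was 4 of 8. At the final harvest 3 were (DDIT4, TRIB3 and CEBPB), against 5.73% of all genes. ATF5 had a higher ratio without overlap at both harvests, 9.93% to 10.4% against 6.04% to 6.36% initially, a pattern that 44.2% of all genes shared initially and 42.2% at the final harvest. The ratios of ATF3 and CEBPG overlapped between genotypes at both harvests.

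Counted over the 10 genes, the KO was lower than the WT at the initial harvest for 8 and higher for 1, ATF5, where 11.3% and 8.55% of all tested genes were called lower and higher. ATF3 was the gene not called. At the final harvest 4 were lower (DDIT3, DDIT4, TRIB3 and CEBPB) and none higher, against 10.2% and 8.38% of all genes. In the average over both harvests 9 were lower and ATF5 higher, against 16.1% and 14.0%. Without NUPR1, 7 of 9 were lower initially and 8 of 9 on average. The 10 genes had a median log2 fold change of -0.65 initially and -0.59 at the final harvest. The libraries of the 2 genotypes did not overlap for any of the 10 at the initial harvest, with 9 lower and 1 higher in the KO, where 18.4% and 17.1% of all genes were lower or higher without overlap. Without NUPR1, 8 of 9 were lower without overlap. At the final harvest 6 of the 10 were lower without overlap (ATF4, DDIT3, DDIT4, TRIB3, CEBPB and SESN2), against 17.2% of all genes. The initial and the final comparison share no libraries. The number called at the final harvest moved from 4 to 7 without the initial WT replicate 2, which holds no final RNA but enters the common estimate of spread. Over all genes that number moved from 3391 to 3895.

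**Figure D3:**
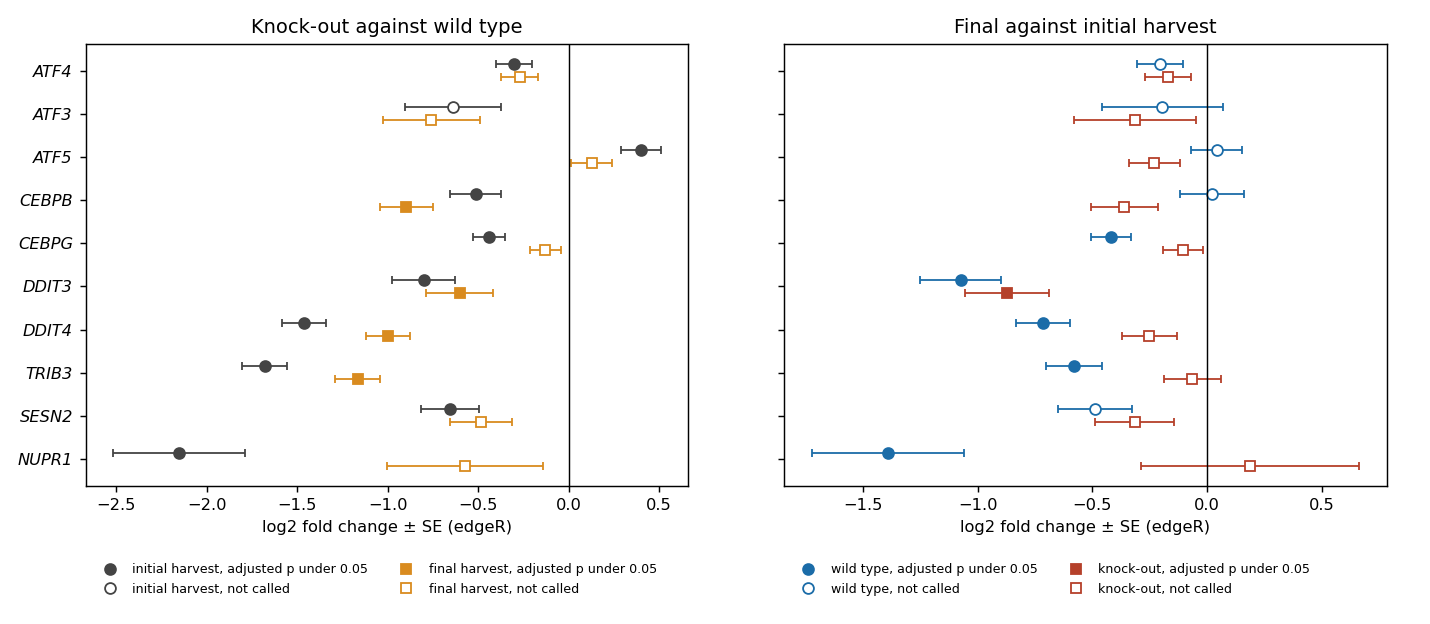
Log2 fold changes of the 10 genes (horizontal axis) in the genotype and time comparisons of edgeR's quasi-likelihood model. Error bars are the SE and not confidence intervals. Filled points passed an adjusted p under 0.05. TRIB3, DDIT4 and NUPR1 lie farthest below 0 at the initial harvest, and ATF5 is above 0.

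Among the bZIP factors that ATF4 is known to induce, ATF3 and ATF5 differed in direction. ATF3 (ENSG00000162772.17, chr1:212565334-212620777, plus strand), a repressor and early stress gene, had 68.0, 78.6 and 54.3 CPM in the initial WT and 49.0, 33.5 and 46.3 CPM in the initial KO. The final WT had 88.3, 47.6 and 39.6 CPM and the final KO 47.2, 32.7 and 23.7 CPM. ATF3 varied widely within groups, and its genotypes overlapped at the final harvest. Its log2 fold changes were -0.64 (SE 0.265, adjusted p 0.104) and -0.76 (SE 0.267, adjusted p 0.0592), and the average was lower in the KO at -0.70 (SE 0.188, adjusted p 0.00947). The average lost its call without the initial WT replicate 1 (adjusted p 0.0585) and with no filter on low counts (adjusted p 0.132). The initial difference gained a call without the final WT replicate 1 (-0.65, adjusted p 0.0321) and in a fit of the initial groups alone (adjusted p 0.0141). The final difference of ATF3 ranged from -1.06 to -0.33 over the alternative fits, the latter without the final WT replicate 1 (adjusted p 0.358). It was called without the final KO replicate 1 (-1.06, adjusted p 0.0186), the final WT replicate 3 (-0.98, adjusted p 0.0189) or the initial WT replicate 2 (adjusted p 0.0478).

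ATF5 (ENSG00000169136.12, chr19:49928702-49933935, plus strand), a relative of ATF4 under similar translational control and known for its part in the mitochondrial stress response, had 24.2, 33.4 and 27.2 CPM in the initial WT. It had 36.2, 38.2 and 37.3 CPM in the initial KO, all above the WT. In the final WT it had 31.9, 29.3 and 26.2 CPM, and in the final KO 34.0, 28.9 and 32.3 CPM, which overlapped. ATF5 was higher in the initial KO by 0.40 on the log2 scale (SE 0.111, adjusted p 0.0184) and had a log2 fold change of 0.13 at the final harvest (adjusted p 0.501). Its average difference was 0.26 (adjusted p 0.0187), which was not called without the initial WT replicate 3 (adjusted p 0.0519), the final WT replicate 3 (adjusted p 0.0609) or the final KO replicate 1 (adjusted p 0.0559). The initial call was lost in 4 of the 12 fits that left out a library: the initial WT replicates 1 (0.30) and 3, and the initial KO replicates 2 and 3. Exons of NUP62 and IL4I1 on the other strand cover part of the 22.1% of ATF5 exon bases shared with other genes. NUP62 had a log2 fold change of -0.04 (adjusted p 0.789).

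CEBPB and CEBPG, the 2 CEBP factors and known dimer partners of ATF4, were both lower in the KO at the initial harvest, and CEBPB was also called at the final one. CEBPB (ENSG00000172216.6, chr20:50190830-50192668, plus strand) had 15.6, 25.6 and 22.5 CPM in the initial WT and 14.6, 14.9 and 15.1 CPM in the initial KO. The final WT had 20.3, 23.0 and 21.4 CPM and the final KO 11.04, 10.4 and 13.3 CPM. The genotypes were close together initially through the first WT library and far apart at the final harvest. CEBPB had log2 fold changes of -0.51 (SE 0.142, adjusted p 0.0169) and -0.90 (SE 0.144, adjusted p 0.000286). The initial call was lost without the initial WT replicate 2 (-0.36, adjusted p 0.057) or 3, or the initial KO replicate 1 or 2, while the final call held in all 17 alternative fits. The antisense transcript CEBPB-AS1 overlaps 12.6% of the CEBPB exon bases and had a log2 fold change of -0.43 (adjusted p 0.288).

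CEBPG (ENSG00000153879.9, chr19:33373685-33382686, plus strand), whose promoter carries the element shown above, had 90.3, 93.3 and 86.2 CPM in the initial WT. The other groups had 59.2, 71.5 and 71.2 CPM (final WT), 62.7, 65.7 and 70.3 CPM (initial KO) and 65.4, 60.8 and 58.4 CPM (final KO). The initial WT stood alone above the other 3 groups, which overlapped. The log2 fold change of the KO was -0.44 at the initial harvest (SE 0.0865, adjusted p 0.00167) and -0.13 at the final harvest (SE 0.0867, adjusted p 0.347).

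DDIT4 and TRIB3 had the smallest adjusted p of the 10 genes in the genotype comparison at both harvests. DDIT4 (ENSG00000168209.6, chr10:72273919-72276036, plus strand), also called REDD1, restrains mTORC1 through TSC1 and TSC2. It had 146, 209 and 202 CPM in the initial WT, 105, 115 and 119 CPM in the final WT, 62.8, 69.4 and 70.3 CPM in the initial KO and 54.4, 51.7 and 63.8 CPM in the final KO. All 6 KO libraries lay below all 6 WT libraries. The log2 fold changes were -1.46 (SE 0.121, adjusted p 2.93e-07) and -0.9997 (SE 0.121, adjusted p 1.65e-05).

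TRIB3 (ENSG00000101255.12, chr20:362835-397559, plus strand), a pseudokinase that binds ATF4 and DDIT3 and damps their activity, had 115, 174 and 129 CPM in the initial WT and 86.9, 96.4 and 95.8 CPM in the final WT. The initial KO had 42.1, 44.1 and 43.9 CPM and the final KO 41.5, 37.1 and 45.8 CPM. Its KO libraries did not separate by harvest and none reached the lowest WT library. The log2 fold changes were -1.68 (SE 0.125, adjusted p 8.92e-08) and -1.17 (SE 0.124, adjusted p 4.1e-06), which correspond to 31.2% and 44.5% of the WT level.

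DDIT3 (ENSG00000175197.13, chr12:57516588-57521737, minus strand), the factor CHOP that is linked to stress-induced cell death, differed by genotype and by time. It had 26.0, 29.2 and 22.3 CPM in the initial WT, 16.5, 10.6 and 9.73 CPM in the final WT, 16.6, 11.9 and 15.8 CPM in the initial KO and 8.83, 8.57 and 6.83 CPM in the final KO. The lowest values were those of the final KO, and the final WT and initial KO overlapped. The log2 fold changes by genotype were -0.80 (SE 0.175, adjusted p 0.00373) and -0.60 (SE 0.185, adjusted p 0.0315). The final difference was -0.33 (adjusted p 0.18) without the final WT replicate 1, and its call was also lost without the final KO replicate 2 or 3. Other genes overlap 39.6% of the 1307 exon bases of DDIT3, among them MARS1 (355 bases) and MBD6 (58 bases) on the other strand. MARS1, a tRNA synthetase gene among the 35 targets, had log2 fold changes of -0.57 (adjusted p 0.000301) and -0.49 (adjusted p 0.00114). Because the use of strand in counting is not stated, reads of DDIT3 and MARS1 in the shared bases cannot be told apart.

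SESN2 (ENSG00000130766.5, chr1:28259518-28282491, plus strand), a leucine sensor that inhibits mTORC1 through GATOR2, was a minor transcript. It had 4.84, 6.50 and 4.83 CPM in the initial WT, 4.10, 3.49 and 3.93 CPM in the final WT, 3.71, 3.73 and 2.81 CPM in the initial KO and 2.84, 2.24 and 3.14 CPM in the final KO. The genotypes did not overlap at either harvest. SESN2 was lower in the initial KO, with a log2 fold change of -0.66 (SE 0.162, adjusted p 0.0086) and its final difference was -0.48 (SE 0.170, adjusted p 0.0588). Without the initial KO replicate 3 the initial call was lost (-0.54, adjusted p 0.0534), and without the final KO replicate 3 the final difference was called (-0.60, adjusted p 0.0459). The final difference was also called without the initial WT replicate 1 or 2, with DESeq2 (adjusted p 0.0484) and with no filter on low counts (adjusted p 0.0332).

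NUPR1 (ENSG00000176046.9, chr16:28532708-28539008, minus strand), a small stress-induced chromatin protein, was close to the limit of detection. It had 25, 23 and 17 counts in the initial WT, 7, 9 and 7 in the final WT, 5, 6 and 3 in the initial KO and 3, 5 and 8 in the final KO. The initial WT was apart from the other 3 groups, and the final KO overlapped both of the other low groups. NUPR1 had a fitted log2 fold change of -2.15 initially (SE 0.365, adjusted p 0.00047) and -0.57 at the final harvest (adjusted p 0.423). These few counts set its precision.

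Over the 2 months of culture, 5 of the 10 genes fell in the WT, or 4 of 9 without NUPR1, whose passing of the filter rested on the initial WT: DDIT3 (-1.07, adjusted p 0.00148), DDIT4 (-0.72, adjusted p 0.00153), TRIB3 (-0.58, adjusted p 0.00819), CEBPG (-0.42, adjusted p 0.00749) and NUPR1 (-1.39, adjusted p 0.0179). None rose, where 3.42% of all genes were lower and 3.05% higher at the final harvest in edgeR's quasi-likelihood test. ATF4 had a log2 difference of -0.20 (adjusted p 0.276) over the same time, and its libraries overlapped between harvests. NUPR1 lost its call without the initial WT replicate 1 or the final WT replicate 2 or 3. Of the 35 targets 11 fell and none rose, among them CHAC1 (-0.87), SLC1A4 (-0.55), GPT2 (-0.46) and PHGDH (-0.36), the last of which lost its call in 3 of 12 fits that left out a library. The 11 include FGF21, whose passing of the filter also rested on the initial WT. The genotype and time comparisons share the initial WT libraries. In the KO, 1 of the 10 fell over time, DDIT3 (-0.87, adjusted p 0.0243), where 0.64% of all genes were lower and 0.837% higher. That call was lost in 5 of 12 fits, those without the initial KO replicate 1 or 3 or any of the final KO libraries. DDIT4 had -0.25 (adjusted p 0.339), TRIB3 -0.07 (adjusted p 0.855) and ATF4 -0.17 (adjusted p 0.45) in the KO. The final KO libraries of ATF4 (292 to 351 CPM) all lay below the initial ones (365 to 368 CPM). The share of all genes so separated over time is not given here, so this separation is not read as a fall. None of the 35 targets was called over time in the KO by edgeR or DESeq2. In edgeR 4 of the 35 had an unadjusted p under 0.05, a count that cannot be read without the share of all genes, which is not given here. A fit of the KO groups alone called 2 of the 35, where it called 728 of all genes. With no filter edgeR also called 2, where it called 484 of all genes.

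Whether the genotype difference itself changed between harvests was tested with the interaction term. None of the 10 passed in edgeR's quasi-likelihood test, where 0.809% of all genes had a higher and 0.476% a lower difference. None passed in DESeq2 either, which called 472 of all genes. At an unadjusted p under 0.05 there were 4 in edgeR, or 3 of 9 without NUPR1, all with interactions above 0, where 6.75% of all genes had such a p above 0 and 5.53% below: DDIT4 (0.46, adjusted p 0.251), TRIB3 (0.51, adjusted p 0.206), CEBPG (0.31, adjusted p 0.299) and NUPR1 (1.58, adjusted p 0.264). ATF4 had an interaction of 0.03 (95% confidence interval -0.25 to 0.31, adjusted p 0.957). TRIB3 passed when no filter on low counts was used (adjusted p 0.0336), and DDIT4 passed without the initial WT replicate 1 (0.60, adjusted p 0.0258).

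Upstream of ATF4, the RNAs of the 4 eIF2 kinases were not called in any of the 6 comparisons, although EIF2AK3 was called at the final harvest without the initial WT replicate 2 or the final WT replicate 1. At the initial harvest the log2 fold changes were 0.03 for EIF2AK1 (HRI, the heme-regulated kinase), 0.07 for EIF2AK2 (PKR, which senses double-stranded RNA), 0.03 for EIF2AK3 (PERK, which senses unfolded protein in the endoplasmic reticulum) and 0.07 for EIF2AK4 (GCN2, which senses uncharged tRNA). At the final harvest they were -0.001, 0.28, 0.27 and 0.13 in the same order. Of 18 genes for kinases, phosphatase subunits and eIF2 machinery, none was called at the initial harvest in edgeR (background 8.55% higher and 11.3% lower). DESeq2 called 1 of the 18 there, where it called 3848 of all genes. In edgeR 3 of the 18 had an unadjusted p under 0.05, a count that cannot be read without the share of all genes, which is not given here. At the final harvest 2 were higher and 2 lower, where 8.38% and 10.2% of all genes were, so the list stood near the background. OMA1, a mitochondrial protease that relays stress to HRI, rose by 0.44 (adjusted p 0.00266), and DNAJC3, an inhibitor of eIF2 kinases, rose by 0.40 (adjusted p 0.00742). PPP1R15B, the constitutive eIF2 phosphatase subunit, fell by 0.32 (adjusted p 0.00873), and EIF2B1 was the other gene lower. PPP1R15A, the stress-induced subunit, had -0.23 (adjusted p 0.352) and -0.26 (adjusted p 0.288). Kinase activity and eIF2 phosphorylation are not measured by these counts.

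The genes of the ATF6 and XBP1 branches of the unfolded protein response were mixed. Of 17, 2 were higher and 5 lower in the initial KO, against 8.55% and 11.3% of all genes, and 1 was higher and 3 lower in the final KO, against 8.38% and 10.2%. HERPUD1, a degradation factor of the endoplasmic reticulum, had log2 fold changes of -0.77 and -0.59, XBP1 -0.52 and -0.41, ATF6 -0.51 and -0.38, and CRELD2 0.39 and 0.29, all called. The final call of CRELD2 was lost in 8 of 12 fits that left out a library. Against the same background, the 20 tested paralogs and bZIP relatives of the 10 genes had 2 members higher and 7 lower initially, and 1 higher and 4 lower at the final harvest. JUN fell by 0.99 and 1.18 and JUNB by 0.73 and 1.29 on the log2 scale, 2 subunits of AP-1, and ATF6B by 0.67 and 0.43. SESN1, the p53-responsive paralog of SESN2, was higher in the KO at both harvests, with 12.03 ± 0.904 and 21.5 ± 0.291 CPM initially (log2 fold change 0.84, adjusted p 1.09e-05) and a log2 fold change of 0.48 (adjusted p 0.00184) at the final harvest. The 2 sestrins therefore differed in opposite directions at the initial harvest.

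Of 16 genes of the mTORC1 pathway, which DDIT4 and SESN2 restrain, 3 were lower and none higher initially, and 2 were lower and none higher at the final harvest. These counts stood near the background of 11.3% and 10.2% of all genes lower. EIF4EBP1, a translation repressor that is also among the 35 targets, had log2 fold changes of -0.76 and -0.61, and CASTOR1, an arginine sensor that acts beside SESN2, had -0.66 and -0.88 with 9 to 34 counts per library. The initial call of CASTOR1 was lost in 11 of 12 fits that left out a library, and no mTORC1 gene was called at the final harvest without the final WT replicate 3 or the final KO replicate 1. DDIT4, SESN2 and ATF3 are also known targets of hypoxia signalling or p53. Of 15 other hypoxia and p53 genes, 4 were higher and 2 lower initially, and 2 higher and 6 lower at the final harvest, where 8.55% and 11.3%, then 8.38% and 10.2%, of all genes were higher and lower. The p53 target CDKN1A, an inhibitor of cyclin-dependent kinases, was higher in the KO by 0.98 and 0.37, the second lost in 4 of 12 fits that left out a library, while GADD45A was lower by -0.55 and -0.63. The hypoxia gene CA9 had 18, 11 and 38 counts in the initial WT, 93, 107 and 131 in the final WT, 4, 5 and 2 in the initial KO and 0, 7 and 4 in the final KO. NDRG1, also induced by hypoxia, had log2 fold changes of -0.24 (adjusted p 0.259) and -1.20 (adjusted p 1.47e-05). In the WT over time 5 of these 15 rose, CA9, NDRG1 and CDKN1A among them, and none fell, whereas DDIT4 fell. Of all genes, 3.05% were higher and 3.42% lower in that comparison. The part of these pathways in the values of the 10 genes was not tested.

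**Figure D4:**
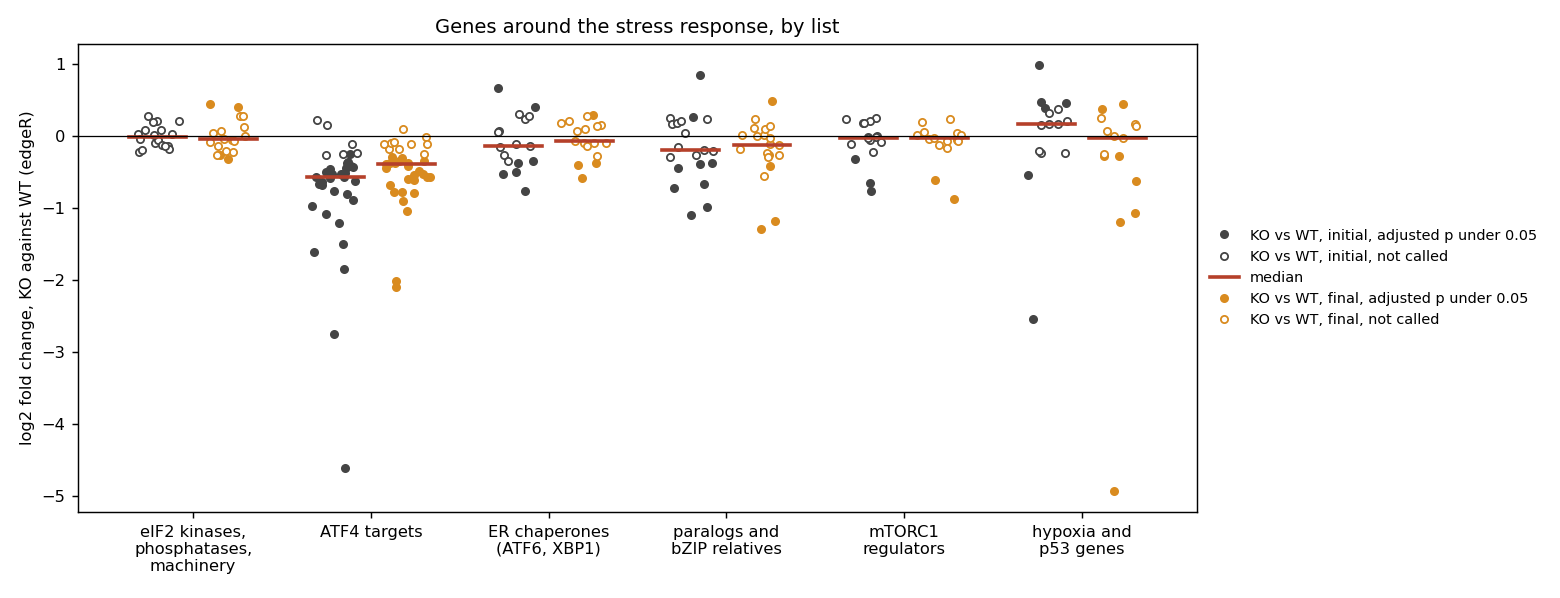
Log2 fold changes of KO against WT (vertical axis) for every tested gene of 6 lists at the initial (grey) and final (orange) harvest. Filled points passed an adjusted p under 0.05 in edgeR's quasi-likelihood test and red bars are medians. The ATF4 targets lie mostly below 0, with medians of -0.57 and -0.39, and the eIF2 genes lie about 0. The lowest initial target is FGF21, whose fitted value depends on the prior count.

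As a description, the genes whose log2 CPM was most like that of ATF4 over the 12 libraries were PYCR1, an enzyme of proline synthesis (Pearson r 0.978), IDH3G, a subunit of a citric acid cycle enzyme (0.956), MTHFD1L, a mitochondrial folate enzyme (0.954), STMN1, a microtubule regulator (0.953), and WDR76 (0.952), of 12536 genes ranked. Among the 10, SESN2 (0.927) ranked 21st, DDIT4 (0.897) 65th, CEBPB (0.880) 99th and TRIB3 (0.879) 101st. CEBPG had 0.786, DDIT3 0.730, ATF3 0.597 and ATF5 -0.144. These libraries fall into 4 groups and share the genotype difference, so no p is given.

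Genes next to the 10 on the chromosome were looked at because the KO is a single clone. Around 8 of the 10, the median log2 fold change of the 10 nearest tested genes on each side lay between -0.12 and 0.24 at both harvests. Around DDIT3 it was -0.37 initially and -0.22 at the final harvest, with 9 and 6 of 20 neighbours lower. MARS1, lower at both harvests, and SHMT2, called at the final harvest alone, are themselves ATF4 targets. Around TRIB3 it was -0.19 and -0.22, with 7 and 5 of 16 neighbours lower. No neighbour of either gene was higher. Of all tested genes, 11.3% were lower and 8.55% higher initially, and 10.2% and 8.38% at the final harvest. Around DDIT4 it was 0.24 and 0.15, opposite in sign to DDIT4. The part of the neighbourhood in the values of DDIT3 and TRIB3 was not tested.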

How the data were processed

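Poly-A RNA was sequenced in 12 libraries of HCT116 cells, 3 for each genotype and harvest. The authors deposited unnormalized counts of every gene in a table with featureCounts' layout, per the file headers. The submitters' processing notes name STAR, Subread, featureCounts and hg38. Versions, annotation release, use of strand and treatment of multiply mapped reads are not given in the sources used here. 5 lines, in which a spreadsheet had broken 1 gene, were left out.

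Counts were filtered with filterByExpr (minimum count 10), scaled with TMM and modelled with a mean for each of the 4 groups and a robust quasi-likelihood F-test (edgeR 4.0.16 under R 4.3.3) over 6 comparisons: the genotype at each harvest and on average, time within each genotype, and the interaction. P-values were adjusted by Benjamini-Hochberg over 18289 genes. An SE is the log2 fold change divided by the root of F. CPM per kilobase uses the exon length that the deposited count table gives for each gene. For log2 positions and correlations a prior count of 2 was used. Alternatives were other size factors (RLE), DESeq2 1.42.0, no filter, a replicate block, a fit of only the groups compared, and leaving out each library. The 95% intervals of log2 fold changes are normal intervals from the SE, which includes the spread between libraries. Floors (3 counts) cover counting error only.

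The 10 genes and all lists were chosen with earlier results of these data known. Named by rule were the 10 genes, MTHFD2, the eIF2 kinases and PPP1R15A and PPP1R15B, in each of 6 lists the 4 genes with the smallest adjusted p on average, and the 5 genes most correlated with ATF4 (mean log2 CPM of at least 1). ASNS, FGF21, MARS1, SHMT2 and genes given to complete a count were named after their values were seen. Promoters are RefSeq windows of 300 bases. At 15 of the 18 windows of the 10 genes, the bases after the start were in a GENCODE 29 transcript.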

Additional observations from a re-analysis of the deposited data

Results flagged for a closer look

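Of the genes named, 2 outside the 10 had a genotype difference that changed between harvests by the interaction test of edgeR. GPT2, an ATF4 target, had an interaction of 0.52 (adjusted p 0.0292), with a KO log2 fold change of -1.21 initially and -0.69 at the final harvest. NDRG1, a hypoxia gene, had an interaction of -0.95 (adjusted p 0.0243), with -0.24 initially and -1.20 at the final harvest. NDRG1 had 126 ± 28.3 CPM in the initial WT, 223 ± 27.3 in the final WT, 106 ± 6.68 in the initial KO and 97.4 ± 15.2 in the final KO (SD, n = 3). The call was lost in 8 of 12 fits that left out a library for GPT2 and in 6 of 12 for NDRG1. Neither lost it without a library of the initial WT or without the final WT replicate 1. None of the 10 genes was so called. Groups of 3 libraries are too small for a check of single outlying libraries.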

How the results depend on the processing

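The genotype difference of ATF4 at the initial harvest (-0.30) was no longer called with the replicate block (-0.30, adjusted p 0.0586) or with only the groups compared (-0.30, adjusted p 0.0681), and ranged from -0.38 to -0.18 (adjusted p 0.0141 to 0.146) when libraries were left out. At the final harvest it was called with no filter (-0.28, adjusted p 0.0497) and ranged from -0.34 to -0.20, with calls without the initial WT replicate 1 (adjusted p 0.0406) or 2 (adjusted p 0.0217). Leaving out libraries gave 6 to 10 of the 10 genes called at the initial harvest, 3 to 7 at the final harvest, 9 to 10 on average, 4 to 5 over time in the WT, 0 to 1 over time in the KO and 0 to 1 for the interaction. The numbers called over all genes moved as well in these fits. They ran from 2423 to 4615 initially, 2561 to 3895 at the final harvest and 4657 to 6039 on average. Over time they ran from 627 to 1399 in the WT and 94 to 463 in the KO, and for the interaction from 124 to 444. Of the 10 genes, 2 were called over time in the KO with only the groups compared (DDIT3 and CEBPB), and 1 for the interaction with no filter (TRIB3). The cause was not tested. Over 18 pairs of same-numbered libraries the correlations of deviations ran from -0.59 to 0.53, and in 0 of 6 pairs of groups were all 3 over 0.1. With 3 libraries in a group these mixed values cannot decide whether the replicate numbers are a pairing. The replicate block called 9, 5, 10, 5, 1 and 0 of the 10 genes in the 6 comparisons. Over all genes it called 3539, 3298, 5421, 1123, 246 and 217. With the block ATF3 was called at both harvests (adjusted p 0.0287 and 0.0133). No called value of a named gene reversed, and 106 uncalled values turned sign, 13 of them of the 10 genes. Over all genes, DESeq2 called 602 and 472 genes over time in the KO and for the interaction, edgeR without a filter 484 and 423, and a fit of only the groups compared 728 over time in the KO and 578 over time in the WT, against 270, 235 and 1183. For the interaction of the 35 targets, edgeR called 1, DESeq2 7 and edgeR without a filter 6. Depth limits NUPR1 and FGF21, and to a lesser degree SESN2 and CASTOR1.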

Other observations

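Within each of the 4 groups the 3 libraries had the same order from lowest to highest for ATF4 and TRIB3, and likewise for ATF3 and DDIT3, a pattern chosen after the values were seen. No other pair among the 10 genes shared its order in all 4 groups. ATF4 and ATF3 shared it in 0 of 4. In the final WT, replicate 1 was the highest of its group for ATF3 (88.3 CPM) and DDIT3 (16.5 CPM) and the lowest for ATF4 (379 CPM) and TRIB3 (86.9 CPM).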
